A study of Mus musculus with 39 samples.

Results

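Semaphorins, plexins and neuropilins were followed through 39 microarrays of mouse dorsal root ganglia (DRG), the ganglia that house the cell bodies of somatic sensory neurons. The members were all probe sets annotated to a single gene of the Sema3 to Sema7, Plxna to Plxnd or Nrp families. They were picked by symbol, with earlier results of these data known. They came to 78 probe sets of 31 genes, out of 45037 probe sets tested and 18193 genes with a probe set of their own. The 31 genes were 7 secreted class 3 semaphorins, 12 transmembrane semaphorins of classes 4 to 6, the membrane-anchored Sema7a, 9 plexins and both neuropilins. Each gene is given by its brightest probe set, as a linear intensity for each array, and differences are log2 differences of group means ± SE from limma. A gene is called higher or lower where its p, adjusted over all 45037 probe sets by the Benjamini-Hochberg method, was under 0.05. In all, 27 of the 31 genes lay above the median probe set in every group.

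Newborn (p0) neurons came from mice carrying the TrkCGFP transgene, a bacterial artificial chromosome (BAC) in which TrkC regulatory sequence drives green fluorescent protein, on a mixed 129/C57Bl6 background. Dissociated cells were sorted by fluorescence into TrkC+ cells, which are enriched for proprioceptors, and TrkC- cells, the remainder of the ganglion. Every newborn group thus carried the transgene and passed through the sorter. The signs stand for fluorescence: in the paper only some TrkC-expressing cells carried it, so TrkC- cells can include neurons that express TrkC. The first set pooled lumbar ganglia L1 to L6 of 4 genotypes with 2 arrays for each population and about 350 cells for each array: wild type (WT), Bax-/- (which lack the cell death gene Bax), NT3-/-Bax-/- (which lack both Bax and neurotrophin 3, NT3) and mlcNT3, in which a muscle myosin light chain promoter drives surplus NT3. The second set separated wild-type L1 from L5 ganglia, with 2 arrays for L1 TrkC+ and 3 for each other group, from about 100 cells for each array. The third set was whole L1 or L5 ganglia of adult wild-type mice kept with or without a running wheel for 5 weeks from 5 weeks of age (male C57Bl6 in the methods, 129/C57Bl6 in the labels), with 3 arrays for each of 4 groups. The adult sample titles carry a TrkC sign, but no sort of adult cells is described, and they are treated here as whole ganglia. Bax removal keeps alive neurons that would die without NT3, so NT3-/-Bax-/- was compared first with Bax-/-. The array number limits precision, nothing in the labels says that replicates are separate litters, and the p-values measure the spread between these samples, which may be partly technical.

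Semaphorins are guidance cues that steer, repel or stop growing axons. Class 3 semaphorins are secreted and mostly bind a neuropilin, which holds the ligand while a class A plexin carries the signal. Transmembrane and membrane-anchored semaphorins bind plexins directly, for example Sema4d to Plxnb1, Sema6a to Plxna2 and Plxna4, and Sema7a to Plxnc1 or to beta 1 integrins. Plexins act through their cytoplasmic domain on small GTPases of the Ras, Rap and Rnd families and so on the cytoskeleton and adhesion. In the spinal cord, semaphorins and plexins are known for keeping sensory axons of different modalities apart and for selecting which motor neurons proprioceptors contact.

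The sort was checked against marker lists. Pvalb (parvalbumin, a calcium buffer of proprioceptors) stood at 7764 and 7173 in WT TrkC+ and at 59.6 and 55.5 in WT TrkC- cells. All 5 measured proprioceptor markers were higher in TrkC+ cells in each of the 5 sorts with intact NT3, and 4 to 7 of the 7 nociceptor markers were lower. The NT3-/-Bax-/- groups differed from the others in these markers. Summed proprioceptor markers were 4512 to 6463 in their TrkC+ arrays against 14682 to 15836 in Bax-/-. In their TrkC- arrays summed fibroblast markers were 28476 to 43121 against 1686 to 3001 in Bax-/-. The transcripts removed or added, Bax and Ntf3 (NT3), have no probe set of their own and were not analysed here, so the genotypes were not checked on them. Arrays of 1 group correlated at r = 0.972 or above over all probe sets. In mlcNT3 TrkC+, replicate 2 had the lowest maximum of any newborn array (11048).

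In newborn WT ganglia the family split between the sorted populations. Of the 31 genes, 10 were higher in TrkC+ cells and 8 were lower, where 6.83% and 5.14% of all 18193 genes were. The median absolute difference was 1.05 for the members and 0.26 for all genes. Leaving out WT TrkC+ replicate 2 or WT TrkC- replicate 1 lowered the count from 18 to 10, and 8 calls held whichever array was left out: Plxna1, Plxnb1, Sema3a, Sema3d, Sema4b, Sema6a, Sema6d and Sema7a. In Bax-/- 8 genes were higher and 6 lower (background 5.34% and 5.12%). That count of 14 fell to 8 without Bax-/- TrkC+ replicate 1 or Bax-/- TrkC- replicate 1 and to 6 without Bax-/- TrkC- replicate 2. In mlcNT3 7 were higher and 10 lower (5.45% and 8.09%). At L1 8 were higher and 11 lower (11.9% and 11.8%), and at L5 12 were higher and 11 lower (13% and 13%). These 5 sorts share no arrays. Plxna1, Sema3a, Sema3d, Sema6a and Sema7a were called higher in TrkC+ cells in all 5, and Plxnb1, Sema3c, Sema4d and Sema6d were called lower in all 5. Of these calls, that of Sema3c in Bax-/- was lost whichever of the 4 arrays was left out, and in WT without 2. Sema4d was lost in WT and in mlcNT3 without 3 of the 4, and in Bax-/- Sema6a was lost without 3 and Sema7a without 1. In sign alone, 25 of the 31 genes pointed the same way in all 5 sorts, 12 of them higher and 13 lower in TrkC+ cells. The share of all genes with the same call or sign in all 5 was not counted. These counts therefore describe the members alone. In all 5 of these sorts the TrkC- arrays also had higher summed fibroblast markers, at 2465 to 2688 against 587 to 742 in WT TrkC+, 1686 to 3001 against 731 to 992 in Bax-/- and 2806 to 3168 against 448 to 750.1 in mlcNT3. Summed endothelial markers were 359 to 466 against 247 to 257 in WT, and 788 to 1208 and 1444 to 1649 in L1 and L5 TrkC- against 285 to 307 and 266 to 329.5 in TrkC+. At L1 and L5 the fibroblast sums were 5081 to 5231 and 4808 to 8084 in TrkC- against 686 to 896 and 911 to 1432 in TrkC+. Their part in these differences was not tested, and in bulk samples fewer cells of a type and less RNA per cell cannot be told apart.

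**Figure D1:**
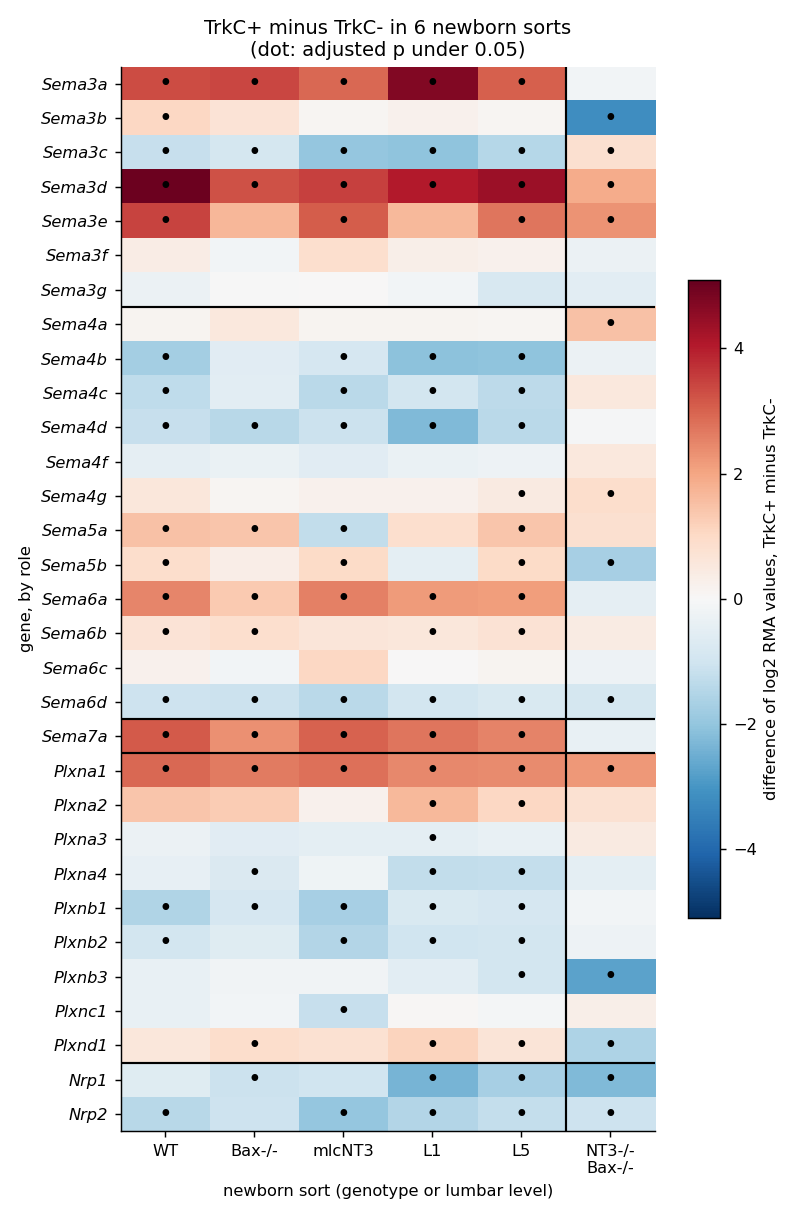
The log2 difference of TrkC+ minus TrkC- cells is shown by colour for each of the 31 genes (rows, grouped by role) in the 6 newborn sorts (columns, NT3-/-Bax-/- last), with a dot where the adjusted p was under 0.05. Sema3a, Sema3d, Sema6a, Sema7a and Plxna1 are higher in TrkC+ cells and Plxnb1, Sema3c, Sema4d and Sema6d lower in the 5 sorts with intact NT3.

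Among the secreted ligands, Sema3a, which repels axons through Nrp1 and class A plexins, read 816 and 776 in WT TrkC+ and 54.6 and 116 in WT TrkC- cells. Its difference was 3.32 ± 0.34 (adjusted p = 6.33e-05), and at L1, where TrkC+ arrays read 1755 and 1052 and TrkC- arrays 53.8, 61.3 and 43.1, it was 4.70. Sema3d, a class 3 ligand, read 859 and 776 in WT TrkC+ and 19.4 and 32.7 in WT TrkC- cells, a difference of 5.02 ± 0.42 (adjusted p = 1.53e-05). The TrkC+ and TrkC- arrays of these genes did not overlap in any of the 5 sorts. Sema3e, which binds Plxnd1 directly without a neuropilin, read 1155 and 1719 in WT TrkC+ against 120.3 and 140.3 in TrkC-. It was called in WT (3.44), mlcNT3 (3.11) and L5 (2.74), and stood at 1.69 (adjusted p = 0.171) in Bax-/- and 1.64 (adjusted p = 0.111) at L1. Sema3c ran the other way, at 299 and 254 in WT TrkC+ and 643 and 602 in TrkC- cells (-1.17 ± 0.22, adjusted p = 0.00514), and was lower in TrkC+ cells by log2 differences from -2.06 at L1 to -0.91 in Bax-/-. Sema3b was called only in WT among these sorts (1.07), a call lost when any 1 of the 4 arrays was left out. Sema3f, a ligand of Nrp2, and Sema3g were called in no sort by their brightest probe sets, though a dimmer one of Sema3f was called at L1.

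Of the ligands held at the membrane, Sema7a and Sema6a were enriched in TrkC+ cells. Sema7a read 1496 and 1407 in WT TrkC+ against 189 and 147 in WT TrkC- cells (3.12 ± 0.45, adjusted p = 0.00073). Sema6a read 619.8 and 631 against 95.3 and 129.6 (2.49 ± 0.33, adjusted p = 0.00045). For both genes the lowest TrkC+ array exceeded the highest TrkC- array in each sort with intact NT3. Sema5a was higher in TrkC+ cells of WT (1.49), Bax-/- (1.43) and L5 (1.40), but lower in those of mlcNT3 (-1.25), where it read 210.2 and 181 in TrkC+ and 473 and 458 in TrkC- cells. The mlcNT3 call was lost whichever of the 4 arrays was left out, and with the mean of all probe sets of the gene. Whether the sort difference itself differed between these genotypes was not tested. Class 4 showed no gene higher in TrkC+ cells apart from Sema4g at L5 (0.44). Sema4d, the ligand of Plxnb1, read 510.0 and 575 in WT TrkC+ and 1204 and 1276 in WT TrkC- cells (-1.20 ± 0.24, adjusted p = 0.00788). Sema4b was lower in 4 of the 5 sorts, at -1.73 in WT, and Sema4c, a ligand of Plxnb2, was also lower in 4, at -1.29 in WT. Both stood short of the threshold in Bax-/- (adjusted p = 0.151 and 0.292). Sema6d read 1658 and 1636 in WT TrkC+ against 3317 and 3500.0 in TrkC- cells, and was lower in every one of the 5 sorts. Sema6b was higher in 4 of the 5 and differed by 0.60 (adjusted p = 0.0546) in mlcNT3. Its calls in WT and at L1 were lost whichever array was left out, and in Bax-/- without 3 of the 4.

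Receptors were found on both sides of the sort. Plxna1, a signalling partner of neuropilins and of Sema6 ligands, read 593 and 673 in WT TrkC+ cells and 83.2 and 84.4 in WT TrkC- cells (2.91 ± 0.28, adjusted p = 4.41e-05). Plxna2 read 2804 and 2982 in L1 TrkC+ and 928, 916 and 946 in L1 TrkC- cells. It was called at L1 and L5 (1.64 and 1.07), while the WT difference of 1.41 missed the threshold (adjusted p = 0.0594). With the mean of all its probe sets Plxna2 was called higher in WT (1.56) and in Bax-/- (1.61). Plxnd1, the receptor of Sema3e, was higher in TrkC+ cells in Bax-/- (0.92), at L1 (1.13) and at L5 (0.65). Plxnb1 and Plxnb2 were lower in TrkC+ cells. Plxnb1 read 291 and 293 against 865 and 818 in WT (-1.53 ± 0.15, adjusted p = 4.05e-05) and Plxnb2 read 507 and 393 against 861 and 868. Plxnb2 was called lower in 4 sorts and stood at -0.63 (adjusted p = 0.089) in Bax-/-. Both neuropilins were lower in TrkC+ cells at L1 and L5. Nrp1, the binding receptor of Sema3a, read 857 and 988 in L1 TrkC+ and 4439, 4917 and 5049.7 in L1 TrkC- cells (-2.38 ± 0.14, adjusted p = 9.66e-07). In the WT pool the Nrp1 arrays also did not overlap (1904 and 1978 against 2744 and 3231), but the difference of -0.62 had an adjusted p of 0.267. A dimmer probe set of Nrp1 was called there. In that pool the TrkC+ arrays lay all above the TrkC- arrays for 14 of the 31 genes and all below for 14. Nrp2 read 108 and 105 in WT TrkC+ and 235 and 347 in WT TrkC- cells (-1.42). Plxnc1, a receptor of Sema7a, read between 1611 and 4615 on every newborn array and by this probe set was called only in mlcNT3 (-1.19). With the mean of its probe sets Plxnc1 was not called in mlcNT3 and was called lower at L5 (-0.45). Plxna4 was called lower in 3 sorts by its brightest probe set over all arrays. By the probe set brightest in the genotype arrays it was also lower in WT (-1.16) and mlcNT3 (-0.91).

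To ask what NT3 contributes, TrkC+ cells of NT3-/-Bax-/- were compared with those of Bax-/-. Here 5 of the 31 genes were higher without NT3 and 9 lower, where 8.77% and 12.7% of all genes were. The median absolute difference was 0.56 for the members against 0.30 for all genes. The 14 calls fell to 9 without Bax-/- TrkC+ replicate 1. Sema3a, Sema7a, Plxnd1, Sema3d, Sema3b, Nrp1, Sema3c and Plxnb2 kept their call whichever of the 4 arrays was left out. The calls of Plxna3, Sema4f, Sema5b and Sema6d were each lost without 3 or 4 of the arrays, that of Plxna2 without NT3-/-Bax-/- TrkC+ replicate 1, and that of Sema4c without Bax-/- TrkC+ replicate 1. Against WT TrkC+ cells, using the same NT3-/-Bax-/- arrays, 7 genes were higher and 10 lower (11.2% and 17.2% of all genes), a count of 17 that fell to 11 without WT TrkC+ replicate 1. Both comparisons share arrays and are set side by side below.

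Secreted ligands held the largest fall and the largest rise. Sema3a read 75.4 and 60.8 in NT3-/-Bax-/- TrkC+ cells, 961 and 582 in Bax-/- and 816 and 776 in WT. Its difference was -3.47 ± 0.34 (adjusted p = 4.44e-05) from Bax-/- and -3.56 from WT. TrkC- cells of the same genotype read 83.9 and 66.9. Sema3d read 193 and 153 without NT3 against 838 and 662 in Bax-/-, a difference of -2.12 ± 0.42 (adjusted p = 0.00442). Sema3b read 55.5 and 95.2 against 227 and 249 (-1.71 ± 0.25, adjusted p = 0.000562). For these ligands both TrkC+ arrays without NT3 lay below every Bax-/- and WT TrkC+ array. Sema3c moved the opposite way and read 5364 and 4600.4 without NT3, 420.0 and 465 in Bax-/- and 299 and 254 in WT. Its difference of 3.49 ± 0.22 (adjusted p = 2.75e-06) from Bax-/- and 4.17 from WT was the largest rise among the 31 genes in either comparison. Sema3e had 1 high and 1 lower array (1701 and 509), overlapping the Bax-/- arrays (668 and 977), and was not called (adjusted p = 0.886).

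The promoter windows of the 4 called genes that fell most and the 2 that rose most in this comparison are shown, because these genes carry the NT3 result. They are the 250 bases before each annotated start, from RefSeq on GRCm38.p6, written 5′ to 3′ on the gene's strand. Capitals mark matches, on either strand, to GGAAG (the core letters of ETS factors, the family of the proprioceptor factor Etv1), TGTGGT (RUNX, the family of Runx3) and TGACG (core letters of cAMP response elements, CRE), and no 2 matches overlap. The windows lie at chr5:13396534-13396783 on the plus strand for Sema3a, chr9:57939862-57940111 (plus) for Sema7a, chr6:115995006-115995255 (minus) for Plxnd1, chr5:12382916-12383165 (plus) for Sema3d, chr5:17574566-17574815 (plus) for Sema3c and chr15:89180789-89181038 (minus, the most upstream of 2 starts) for Plxnb2.
Sema3a: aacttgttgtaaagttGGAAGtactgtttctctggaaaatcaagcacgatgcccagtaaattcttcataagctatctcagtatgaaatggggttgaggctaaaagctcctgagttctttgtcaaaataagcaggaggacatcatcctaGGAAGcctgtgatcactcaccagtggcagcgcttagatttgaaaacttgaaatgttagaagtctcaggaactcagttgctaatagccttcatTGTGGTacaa
Sema7a: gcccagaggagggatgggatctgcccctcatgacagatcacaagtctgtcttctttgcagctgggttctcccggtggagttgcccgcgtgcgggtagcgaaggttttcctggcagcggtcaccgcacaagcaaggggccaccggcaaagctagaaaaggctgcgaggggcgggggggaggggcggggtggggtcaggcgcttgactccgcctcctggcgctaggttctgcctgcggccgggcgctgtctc
Plxnd1: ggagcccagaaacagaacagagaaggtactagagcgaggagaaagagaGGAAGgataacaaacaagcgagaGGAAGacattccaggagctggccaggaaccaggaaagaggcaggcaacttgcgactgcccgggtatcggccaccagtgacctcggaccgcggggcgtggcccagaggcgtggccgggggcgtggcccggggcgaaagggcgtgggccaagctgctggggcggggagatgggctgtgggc
Sema3d: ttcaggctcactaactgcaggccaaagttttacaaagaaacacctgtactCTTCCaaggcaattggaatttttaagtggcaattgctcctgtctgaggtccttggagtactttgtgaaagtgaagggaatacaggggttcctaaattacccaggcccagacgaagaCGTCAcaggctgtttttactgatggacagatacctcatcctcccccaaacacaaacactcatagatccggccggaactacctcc
Sema3c: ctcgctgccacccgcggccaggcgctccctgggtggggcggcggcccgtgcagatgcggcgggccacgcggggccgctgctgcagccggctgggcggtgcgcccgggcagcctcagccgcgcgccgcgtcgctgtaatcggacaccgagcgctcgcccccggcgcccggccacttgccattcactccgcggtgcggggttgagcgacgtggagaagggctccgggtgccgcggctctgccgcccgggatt
Plxnb2: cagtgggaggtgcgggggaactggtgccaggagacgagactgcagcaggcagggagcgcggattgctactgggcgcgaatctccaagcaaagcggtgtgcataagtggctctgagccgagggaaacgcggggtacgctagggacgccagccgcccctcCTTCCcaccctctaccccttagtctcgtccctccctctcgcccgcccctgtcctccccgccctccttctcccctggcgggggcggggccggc
The Sema3a window holds 2 ETS cores and 1 RUNX match, that of Plxnd1 2 ETS cores, that of Sema3d 1 ETS core and 1 CRE match, and that of Plxnb2 1 ETS core. The windows of Sema7a and Sema3c hold none of these letters. GC content ran from 40.8% for Sema3a to 78.4% for Sema3c, beside a median of 52.4% over 32851 windows. Of the 26 member genes with a window used here (all but Plxna1, Plxna4, Sema3b, Sema3f and Sema6a), 20 hold the ETS core, 3 the RUNX letters and 1 the CRE letters. Member windows on 1 chromosome were left out, a filter not applied to the 32851 windows. Of all 32851 windows 64.1%, 14.0% and 17.8% hold them. A match describes letters in a window and is not a bound site.

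Sema7a, the membrane-anchored ligand, read 113 and 232 in TrkC+ cells without NT3, 1507 and 1181 in Bax-/- and 1496 and 1407 in WT. The difference from Bax-/- was -3.04 ± 0.45 (adjusted p = 0.000656). Among the transmembrane ligands, Sema4c read 393 and 539 against 178 and 219.7 in Bax-/- and was higher without NT3 (1.22 ± 0.26, adjusted p = 0.00677). Sema6d was also called higher, by 0.52, and Sema4f and Sema5b lower, at -0.71 and -0.66. The Sema5b arrays of both groups lay below the median probe set. Sema6a, one of the ligands enriched in TrkC+ cells, read 264 and 648 against 464 and 337 and was not called (0.07 ± 0.33, adjusted p = 0.93). Sema4a had 2 unlike arrays (271 and 891) and by its brightest probe set was called higher only against WT (1.47). That call was lost without 3 of the 4 arrays, and the other probe set of Sema4a was called against Bax-/-. Sema3f and Sema5a, not called by their brightest probe sets, were called by a dimmer one in both comparisons. With the mean of their probe sets they differed from WT by -1.04 and 0.89.

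Among the receptors, Plxnd1 read 253 and 392 in NT3-/-Bax-/- TrkC+ cells against 2645 and 1838 in Bax-/- and 1744 and 1395 in WT. Its difference was -2.81 ± 0.24 (adjusted p = 1.69e-05). Plxna2 read 464 and 707 against 2064 and 2216 (-1.90 ± 0.42, adjusted p = 0.00821). Both receptors stood below every Bax-/- and WT TrkC+ array. Nrp1 read 742 and 607 without NT3 and 1304 and 2712 in Bax-/-, where the replicates lay far apart (-1.49 ± 0.30, adjusted p = 0.00475). Plxnb2, receptor of Sema4c, was higher, at 1541 and 1485 against 463 and 566 (1.56 ± 0.20, adjusted p = 0.000283), and Plxna3 was higher by 0.84. Plxna1 read 303 and 399, below the 534 and 449 of Bax-/- and the 593 and 673 of WT. It was called lower only against WT (-0.86, adjusted p = 0.043), and stood at -0.49 (adjusted p = 0.283) against Bax-/-. Nrp2 and Plxnb1 were called higher only against WT, by 1.16 and 0.62, though with the mean of its probe sets Nrp2 was also higher against Bax-/- (0.62). Plxna4 was not called by its brightest probe set over all arrays (0.13), while the probe set brightest in these arrays called it higher (0.88). Beside these differences, 3 of the 5 proprioceptor markers were lower in NT3-/-Bax-/- than in Bax-/- TrkC+ cells, with Pvalb at 156 and 839 against 9261 and 8509, and 3 of 8 glial markers were lower. None of the 7 fibroblast markers was called there by limma (2 at an unadjusted p under 0.05), nor any of the 8 endothelial markers (0 unadjusted). The part of the cell mix in the members' differences was not tested.

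**Figure D2:**
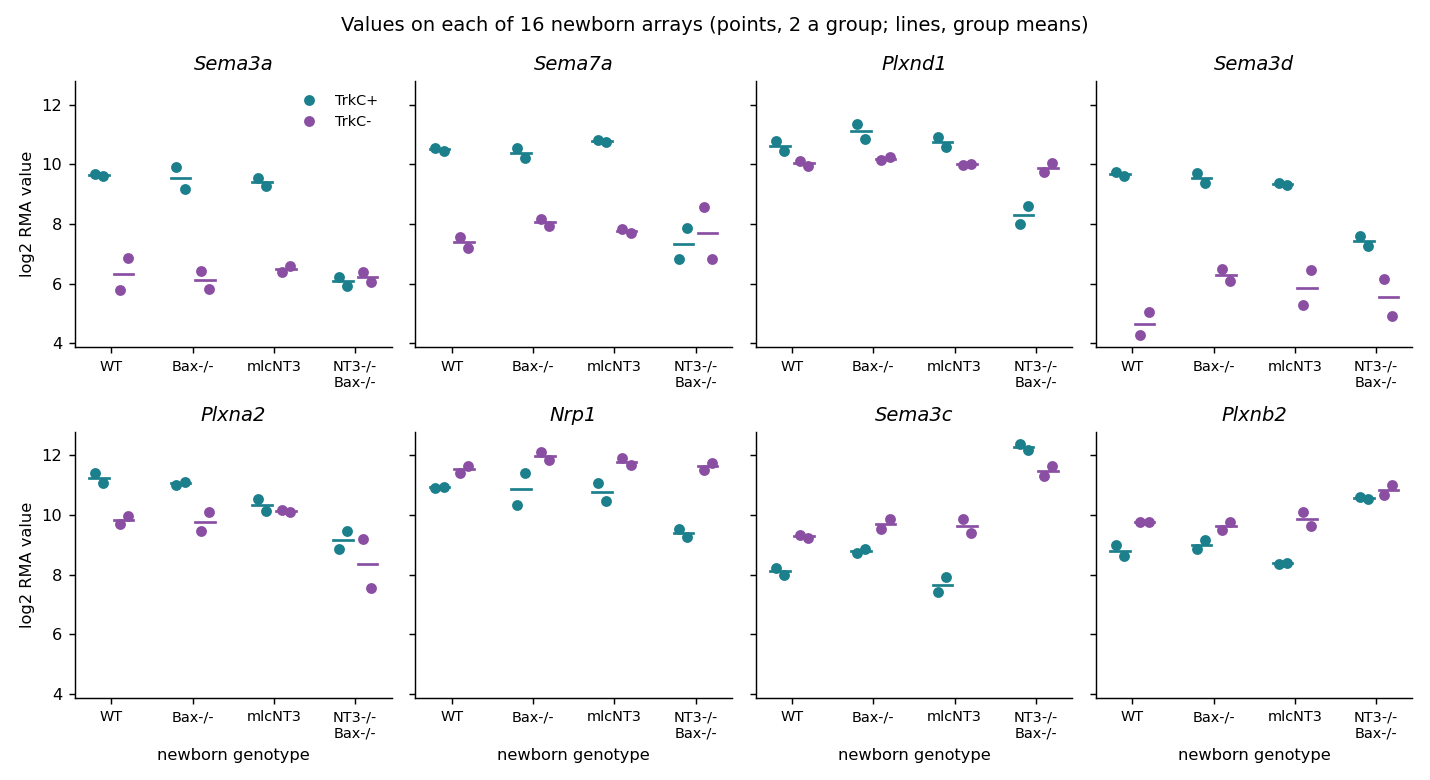
Each point is the log2 value of 1 array (vertical axis) for 8 members called in TrkC+ cells without NT3, with the newborn genotypes and sorted populations along the horizontal axis and lines at group means. Sema3a, Sema7a, Plxnd1 and Sema3d in NT3-/-Bax-/- TrkC+ cells lie below the TrkC+ arrays of the other genotypes, and Sema3c lies above them.

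In TrkC- cells, NT3-/-Bax-/- against Bax-/- gave 7 higher and 6 lower members. These are 22.6% and 19.4% of the members, beside a background of 10.1% and 15.5%, so the count of lower members lies near the background. Sema3b, at 712 and 599.6 against 124 and 171 (2.17), and Plxnb3, a receptor of Sema5a, at 972 and 780.4 against 171 and 274 (2.01), were higher without NT3. Sema6a read 485 and 652 against 154 and 163 and was higher by 1.83. Sema3c was higher here too, by 1.78, as were Sema5a, Sema5b and Plxnb2. Sema4f, Sema4d and Plxna2 were lower, with log2 differences of -1.61, -1.46 and -1.40, and Sema4g, Sema4b and Plxnb1 were lower too. Plxna2 read 589 and 185 in these NT3-/-Bax-/- arrays, and with 1 array left out its difference ran from -2.24 to -0.57. Its call and that of Sema4b were each lost without 3 of the 4 arrays, that of Sema5a without 2 and that of Plxnb1 without any 1. Plxna4 was called lower by the probe set brightest in these arrays (-1.22), and Nrp2 higher with the mean of its probe sets (1.17). All 8 endothelial and 6 of 7 fibroblast markers were higher in these TrkC- cells as well. Summed endothelial markers were 2555 to 2709 against 394 to 559, glial markers 21656 to 22669 against 7298 to 9214 and proprioceptor markers 944 to 1301 against 335 to 346. Other neuronal sums were lower, at 12343 to 24921 against 31396 to 32897 for nociceptor markers (1 of 7 called lower, 5 at an unadjusted p under 0.05) and 5587 to 7261 against 9559.6 to 10834 for cutaneous mechanoreceptor markers (1 of 5 called lower and 2 higher). Col1a1, a fibrillar collagen, read 3564 and 5434 against 48.7 and 103. Macrophage markers summed to 435 to 9977, so the pair of arrays differed from each other too. The part of these cells in the members' differences was not tested.

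Whether the effect of NT3 loss differed between the populations was tested as an interaction, TrkC+ effect minus TrkC- effect. Of the 31 genes, 3 were called higher and 7 lower (5.65% and 7.24% of all genes), a count of 10 that fell to 6 without Bax-/- TrkC- replicate 2. Of the 8 fits with 1 array left out, Plxnb1 lost its call in 6, Sema6a in 5, Sema4d in 4 and Sema7a in 3, and the compared arrays alone called none of these 4. Sema3a (-3.57 ± 0.48, adjusted p = 0.00075), Sema7a (-2.70) and Plxnd1 (-2.51) were lower in TrkC+ cells with no called change in TrkC- cells. In Bax-/- TrkC- cells Sema3a had log2 values of 6.44 and 5.81, where the median probe set stood at 6.13. A fall of Sema3a there could thus hardly be seen. For Sema7a the NT3-/-Bax-/- TrkC- arrays lay far apart, at 382 and 114 against 290 and 242 in Bax-/-. Without replicate 1 of the former the TrkC- difference of Sema7a was -1.22, so a fall in TrkC- cells is not excluded. Sema3b (-3.88) and Sema5b (-2.04) were called lower in TrkC+ and higher in TrkC- cells. In TrkC+ cells Sema5b had log2 values of 5.84 and 5.88 in Bax-/- and 5.36 and 5.03 in NT3-/-Bax-/-. These lie below the median probe sets of 6.12 and 6.10, so its fall there is near the floor. Plxnb3 (-2.57) and Sema6a (-1.76) were higher in TrkC- cells, with no called change in TrkC+. Sema3c rose in both and more in TrkC+ (1.71). Sema4d (1.34) and Plxnb1 (0.74) were lower in TrkC- cells only. In Bax-/- TrkC- cells Sema3d had log2 values of 6.50 and 6.10, near the median probe set of 6.13. Sema3d, at -2.12 in TrkC+ and -0.75 in TrkC- cells, had an interaction of -1.36 (adjusted p = 0.195) and was not called. It was called with the mean of all its probe sets (-1.51), by 1 of its 2 probe sets, and without NT3-/-Bax-/- TrkC- replicate 2 (-1.98). Plxna4 was called higher by the probe set brightest in these arrays (2.10) and with the mean of its probe sets (1.17). Sema4f was also called higher with the mean (1.05). Within NT3-/-Bax-/- itself, 6 members were higher and 7 lower in TrkC+ than in TrkC- cells (12.3% and 11.8% of all genes). Sema3a (-0.15, adjusted p = 0.827) and Sema7a (-0.36, adjusted p = 0.649) were not called there. Plxna1 (2.20) and Sema3d (1.88) were, but the compared arrays alone called 0 members higher and 4 lower.

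**Figure D3:**
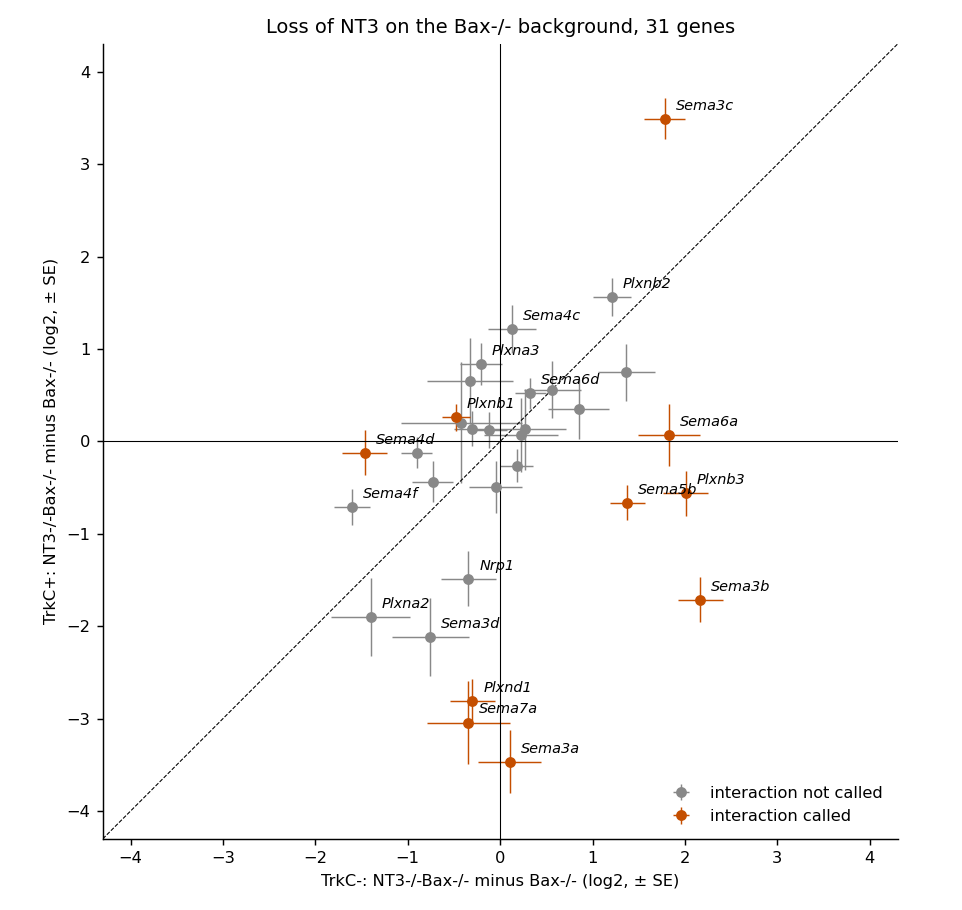
The log2 difference of NT3-/-Bax-/- minus Bax-/- in TrkC- cells (horizontal axis) is plotted against that in TrkC+ cells (vertical axis), 1 point for each of the 31 genes, with error bars of 1 SE, a dashed line of equality and orange for a called interaction. Sema3a, Sema7a and Plxnd1 lie far down near the zero of the horizontal axis, and Sema3c lies at the top.

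Few members were called against WT when Bax alone was absent or NT3 was in surplus. In Bax-/- against WT no member was called in TrkC+ cells (4 at an unadjusted p under 0.05, with 0.346% of all genes called by limma) or in TrkC- cells (3 unadjusted, 0.126% of all genes). Sema3a read 961 and 582 in Bax-/- TrkC+ and 816 and 776 in WT TrkC+ cells, and Sema3c 420.0 and 465 against 299 and 254. In mlcNT3 TrkC- cells no member was called (4 unadjusted, 0.0055% of all genes). In mlcNT3 TrkC+ cells Sema5a, a transmembrane ligand with thrombospondin repeats, was the single call, lower, against 0.115% of all genes lower. It read 210.2 and 181 in mlcNT3 and 963 and 722 in WT TrkC+ cells (-2.09 ± 0.31, adjusted p = 0.0177). The arrays did not overlap, but the call was lost when any 1 of the 4 arrays was left out. Without mlcNT3 TrkC+ replicate 1, Sema6c was called instead (1.80). By the mean of its probe sets Sema5a was not called in mlcNT3 against WT TrkC+ cells. By that measure Plxnb1 was called lower there (-0.90). Sema6c read 523 and 1982 in mlcNT3 TrkC+ cells and Sema3f read 1219 and 3558. Replicate 2 lay far above replicate 1 for each and above every other newborn array. Genes that were lower without NT3 were not called with surplus NT3. Sema3a read 751 and 612 in mlcNT3 TrkC+ cells and differed from WT by -0.23 ± 0.34 (adjusted p = 1). Sema7a read 1807 and 1720.4 and differed by 0.28 ± 0.45 (adjusted p = 1), and Plxnd1 read 1941 and 1540.0 and differed by 0.15 ± 0.24 (adjusted p = 1). The mlcNT3 arrays of Sema7a lay above those of WT, and those of Plxnd1 overlapped. Sema3b (152 and 172 in mlcNT3 against 289 and 236 in WT) and Plxna2 (1497 and 1122 against 2739 and 2131) had mlcNT3 arrays below those of WT, with differences of -0.69 ± 0.25 (adjusted p = 0.595) and -0.90 ± 0.42 (adjusted p = 0.86). Sema3b was called lower at the study's thresholds. Such separation was common: mlcNT3 TrkC+ arrays lay all above those of WT for 7 of the 31 genes and all below for 14. The share over all genes was not counted.

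Proprioceptors at L1 supply mainly trunk and proximal muscle and those at L5 mainly the distal hindlimb, and the newborn levels were compared within each sorted population. In TrkC+ cells 1 of the 31 genes, Sema5b, was higher at L5 (0.374% of all genes). It read 107, 144 and 142 at L5 and 47.0 and 48.2 at L1 (1.45 ± 0.18, adjusted p = 0.00989), and the call was lost without L1 TrkC+ replicate 1. Sema5b is a dim probe set, and its lowest L5 array was still above both L1 arrays. Sema3e had a larger difference, at 1656, 851 and 1107 against 445 and 241, but missed the threshold (1.82 ± 0.64, adjusted p = 0.363). Nrp1 read 1527, 1266 and 1571 at L5 and 857 and 988 at L1 (0.66 ± 0.14, adjusted p = 0.0885), again without overlap. Of the 31 genes, 6 had all L5 TrkC+ arrays above the L1 arrays and 5 had all below. In TrkC- cells no member was called (3 at an unadjusted p under 0.05, 0.214% of all genes by limma). The test of whether the TrkC difference itself differed between L5 and L1 called no member (6 unadjusted, 0.121% of all genes). Without L5 TrkC+ replicate 1 it called Sema5b (1.58).

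**Figure D4:**
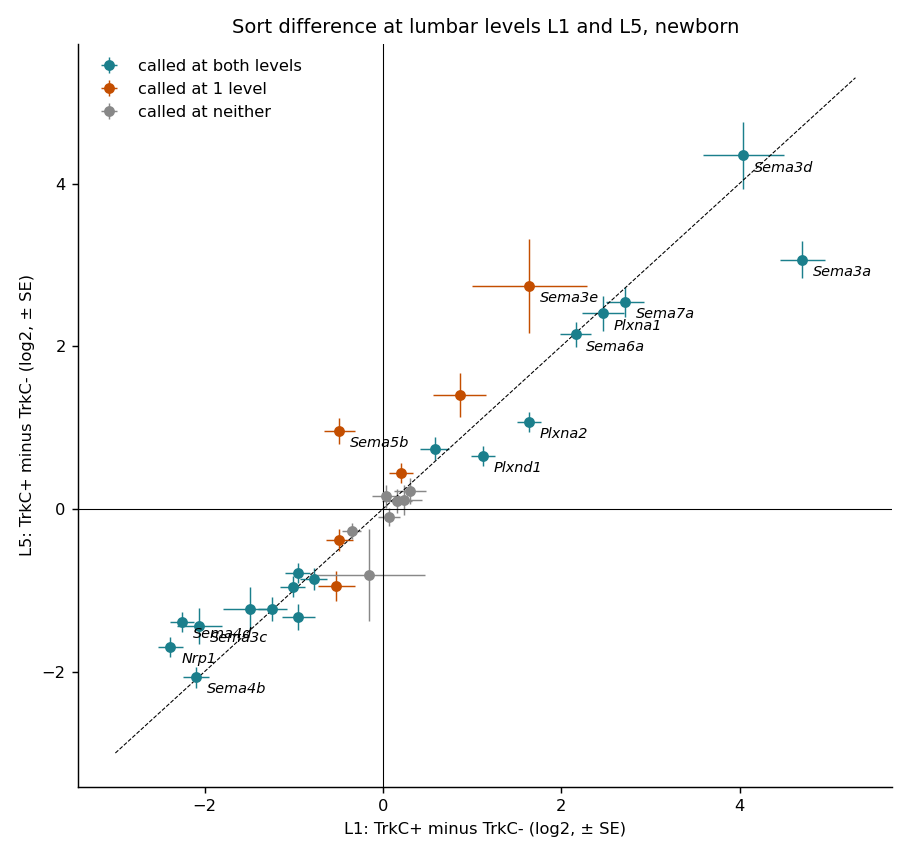
The log2 difference of TrkC+ minus TrkC- cells at L1 (horizontal axis) is plotted against that at L5 (vertical axis), 1 point for each of the 31 genes with error bars of 1 SE and the line of equality. Sema3a lies at 4.70 at L1 and 3.06 at L5, and Sema5b lies on opposite sides of zero, at -0.49 at L1, where it was not called, and 0.96 at L5.

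In whole adult ganglia the called differences between L5 and L1 lay between -0.59 and 0.79 on the log2 scale. Without a wheel, 1 member was higher at L5 and 4 were lower (2.56% and 3.65% of all genes). The 1 higher member is 3.23% of the members, near the background. Sema7a read 528, 529 and 621 at L5 and 431, 433 and 443 at L1 (0.36 ± 0.08, adjusted p = 0.0246). Sema4d read 367, 346 and 371 against 509, 577 and 546 (-0.59 ± 0.09, adjusted p = 0.00233). Sema3f, Plxnd1 and Sema3e were lower, with log2 differences of -0.54, -0.42 and -0.39. The count of 5 was 2 without L1 replicate 1 or 3 or L5 replicate 2 and 1 without L1 replicate 2 or L5 replicate 3, and Sema4d alone kept its call in all of them.

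With a wheel, 4 members were higher at L5 and 5 lower (3.92% and 3.19% of all genes). Sema7a read 747, 716 and 709 at L5 and 509.5, 541 and 534 at L1 (0.45 ± 0.08, adjusted p = 0.00448), and Sema6a read 129, 124 and 113 against 74.6, 73.6 and 89.2 (0.63 ± 0.11, adjusted p = 0.00229). Sema3b read 367, 368 and 298 against 229.9, 213 and 246 (0.58), and Sema3g was higher by 0.79. All 4 genes that were higher had L5 arrays above the L1 arrays. Nrp1 read 1339, 1383 and 1457 at L5 and 1905, 2094 and 2136 at L1 (-0.55 ± 0.10, adjusted p = 0.00319). Sema3c, Plxnd1, Sema4d and Sema3e were lower, with log2 differences of -0.43, -0.40, -0.39 and -0.37. The count of 9 was 5 without L1 wheel replicate 2, L1 wheel replicate 3 or L5 wheel replicate 1. Sema7a, Sema6a, Sema3b, Sema3g and Nrp1 kept their calls whichever array was left out. Sema7a was thus higher, and Plxnd1, Sema3e and Sema4d lower, at L5 in both housing conditions, which share no arrays. Plxnd1 lost its call in 5 of the 6 fits with 1 array left out in each condition, Sema3e in 4 without and 5 with a wheel, Sema7a in 4 without a wheel and Sema4d in 4 with one. Without a wheel, Plxnd1, Sema3e and Sema7a were not called with the compared arrays only. Proprioceptor markers were also higher at L5, 4 of 5 without a wheel and 5 of 5 with one, and 2 and 4 of the 7 nociceptor markers were lower. Without a wheel, summed glial markers were 16877 to 17629.5 at L5 against 13423 to 15522 at L1, fibroblast markers 10662 to 16127 against 9792 to 10610.4 and macrophage markers 1595 to 2903 against 1258 to 1563. With a wheel, macrophage markers were 1390.5 to 1730.0 against 1345 to 1381, and the glial and fibroblast sums overlapped. The part of this cell mix was not tested.

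Running was compared with no wheel at each level. At L5 no member was called by its brightest probe set between wheel and no wheel (9 at an unadjusted p under 0.05, 0.5% of all genes by limma), nor at L1 (4 unadjusted, 0.154% of all genes). Sema7a at L5 read 747, 716 and 709 with a wheel and 528, 529 and 621 without (0.38 ± 0.08, adjusted p = 0.0573), and Sema6a read 129, 124 and 113 against 89.6, 81.8 and 87.6 (0.50 ± 0.11, adjusted p = 0.0518). These arrays did not overlap, and without L5 no-wheel replicate 1 Sema6a was called (0.52). Of the 31 genes, 9 had all L5 wheel arrays above those without a wheel and 1 had all below. The test of a different wheel effect at L5 and L1 called no member (7 unadjusted) and 0% of all genes. The differences between L5 and L1 with and without a wheel are therefore not shown to differ.

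**Figure D5:**
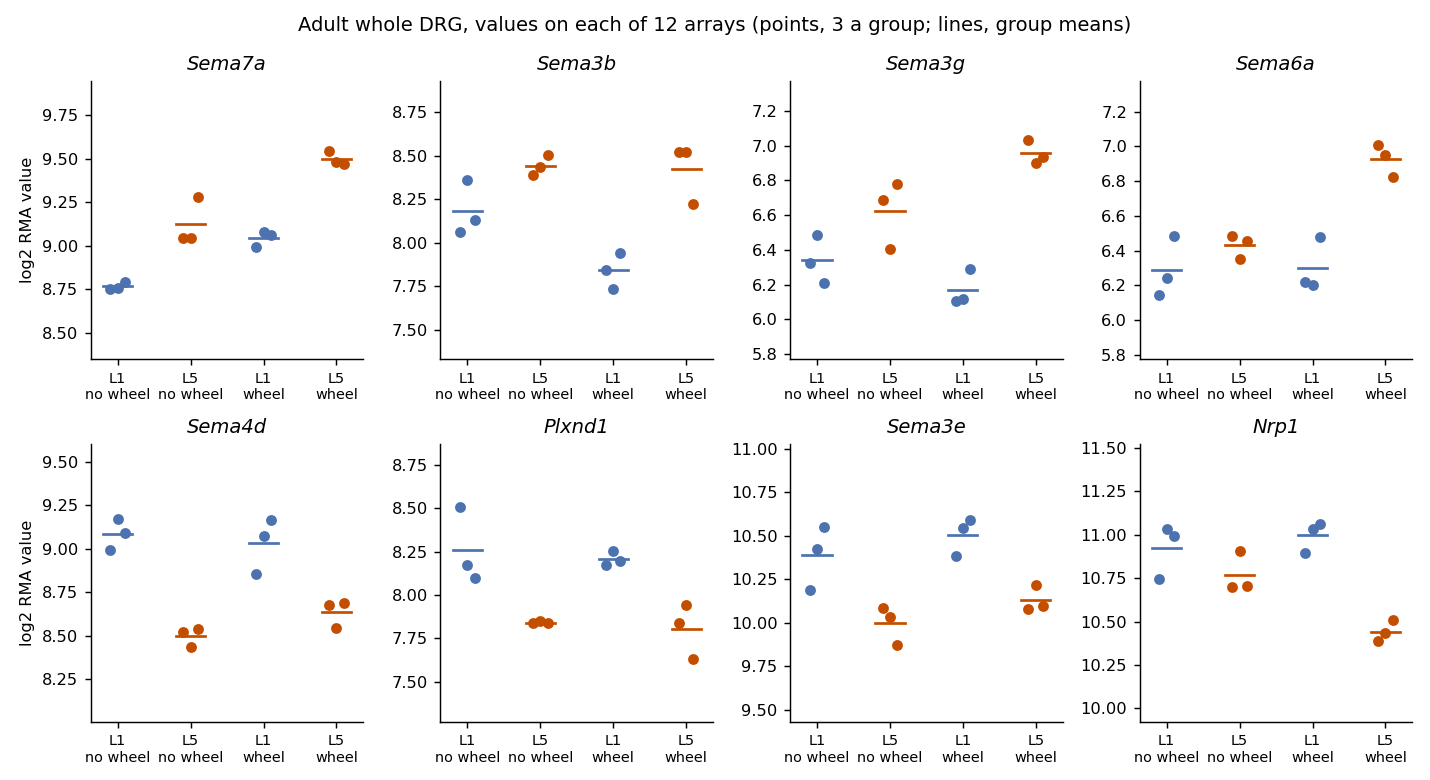
Each point is the log2 value of 1 adult array (vertical axis, the same span in each panel) for 8 members called between L5 and L1, with the 4 groups of level and wheel along the horizontal axis and lines at group means. Sema7a is higher at L5 than at L1 in both housing conditions and Sema4d is lower.

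Other partners of semaphorin signalling were read from 1 list of co-receptors, GTPases and their regulators, kinases, cytoskeletal effectors and an adaptor, 40 of whose 41 genes had a probe set of their own. In WT, 2 were higher and 5 lower in TrkC+ cells, where 6.83% and 5.14% of all genes were. At L5 1 was higher and 12 lower (13% and 13% of all genes), and at L1 1 and 13 (11.9% and 11.8%). Rnd2, a GTPase that binds plexins, was higher, and Chl1, an adhesion molecule that acts with Nrp1 as a Sema3a co-receptor, Mical1, an actin-oxidising plexin effector, Arhgef11, an exchange factor bound by class B plexins, and Kdr were lower in all 5 sorts with intact NT3. Chl1 read 152, 166 and 167 in L5 TrkC+ and 4219, 4035 and 4500.2 in L5 TrkC- cells (-4.72 ± 0.22, adjusted p = 3.2e-07). Kdr, a vascular receptor that is also one of the endothelial markers, was lower, with a log2 difference of -2.68 at L5, beside the endothelial sums given above. In TrkC+ cells without NT3, 3 partners were higher and 6 lower than in Bax-/-, where 8.77% and 12.7% of all genes were, so these counts of 40 lie near the background. Rnd3, a GTPase of the Rnd family, read 2912 and 2265 against 327 and 402 (2.83 ± 0.37, adjusted p = 0.000313). Itga1 (-1.39) and Itgb1 (-0.84), the chains of the integrin that Sema7a binds, were lower, as were Cntn2 (-1.83) and Rras (-1.22), a GTPase inactivated by plexins. In adult ganglia 1 partner, Mical1, was called between L5 and L1 without a wheel, and 5 were called with a wheel (3.65% of all genes lower without, 3.92% higher and 3.19% lower with), of which Nrcam (0.50) and Rnd2 (0.45) were higher and L1cam (-0.47) and Chl1 (-0.45) lower at L5. By limma 0 of the 40 were called in Bax-/- against WT TrkC+ cells (10 at an unadjusted p under 0.05), in mlcNT3 against WT TrkC+ cells (1 unadjusted), between newborn L5 and L1 TrkC+ cells (6 unadjusted) or with running at L5 (12) or L1 (8).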

How the data were processed

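Affymetrix Mouse Genome 430 2.0 arrays of amplified RNA were used. The authors deposited linear intensity values after RMA (per the labels and methods, R 2.9 with affy), which were taken as given and converted to log2 values with no pseudocount; RMA summarises probes after quantile normalization across arrays, so an array-wide shift is removed. The authors also made MAS5 calls, not used here. Of 45101 probe sets 64 controls were left out. Of the rest 34945 list 1 gene, 932 several and 9160 none, and only the first kind were named. Linear models of group means with moderated variances (limma 3.58.1, R 4.3.3) were fitted separately to the 16 newborn genotype, 11 newborn level and 12 adult arrays, and the fit was tested on simulated data. Benjamini-Hochberg adjustment covered all probe sets, and percentages of all genes use 1 probe set for each of 18193 genes. Any member could be named, by the probe set with the highest mean over the 39 arrays, the 3 fits weighted equally; partners and markers were named from fixed lists. The members and lists were chosen with earlier results of these data known. Alternatives were quantile normalization, a filter on dim probe sets, other probe set rules, fits on the compared arrays only, a replicate block, the study's p and fold thresholds, the methods' t-test and leaving out each array. Scanner files, Bax and Ntf3 were not analysed here. Promoter windows are RefSeq's on GRCm38.p6, and intensities have no depth.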

Additional observations from a re-analysis of the deposited data

Results flagged for a closer look

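The effect of NT3 loss differed between TrkC+ and TrkC- cells for 10 members, each read by its brightest probe set, by limma's interaction test, which is what set these results apart. The log2 interaction, TrkC+ effect minus TrkC- effect, was -3.88 for Sema3b, -3.57 for Sema3a, -2.70 for Sema7a, -2.57 for Plxnb3, -2.51 for Plxnd1, -2.04 for Sema5b and -1.76 for Sema6a. It was 1.71 for Sema3c, 1.34 for Sema4d and 0.74 for Plxnb1. With 1 array left out in turn, Plxnb1 lost its call in 6 of 8 fits, Sema6a in 5, Sema4d in 4 and Sema7a in 3 (range -3.57 to -1.82), and all 4 lost it with the compared arrays only. The other 6 kept theirs in these fits. For Sema3a a fall in TrkC- cells could hardly be seen, at log2 values of 6.44 and 5.81 in Bax-/- and a median probe set of 6.13. Sema7a had unlike TrkC- arrays without NT3 (382 and 114, against 290 and 242 in Bax-/-). Sema5b lay below the median probe set in TrkC+ cells of both genotypes. Plxna4 was not among the 10, but the probe set brightest in these arrays called it higher (2.10). The TrkC- arrays of NT3-/-Bax-/- also held summed fibroblast markers of 28476 to 43121, against 1686 to 3001 in Bax-/-, and the part of this in the interactions was not tested. No group had 4 or more arrays, so single arrays could not be tested as outliers.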

How the results depend on the processing

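No called member changed sign under any alternative. Of 174 called gene values, 164 kept their call with quantile normalization, 152 with the mean of all probe sets of a gene, 155 with the replicate block, 135 with the compared arrays only and 125 at the study's thresholds (p at most 0.02 with a 2-fold or 1.5-fold change). Of 164, 75 did by the methods' t-test and 29 after Benjamini-Hochberg, and of 830 values with 1 array left out 642 did. Counts of called members that moved by over 1.5 times follow, and the cause was not tested. By the methods' t-test the TrkC+ against TrkC- counts were 10 in WT, 7 in Bax-/-, 4 in NT3-/-Bax-/- (all lower), 9 in mlcNT3 and 13 at L5. Its NT3 loss counts in TrkC+ cells were 4 against Bax-/- and 5 against WT, with 4 in TrkC- cells. It gave 2 for mlcNT3 against WT in TrkC+ cells, and 1 and 2 for adult L5 against L1 without and with a wheel. After Benjamini-Hochberg it gave 0 in all 8 of these genotype comparisons, 12 for the sort at L1, 0 for newborn L5 against L1 TrkC+, and 0 and 1 for the adult levels. With the compared arrays only, the counts were 7 for the Bax-/- sort, 4 for the NT3-/-Bax-/- sort (0 higher and 4 lower), 8 and 8 for NT3 loss against Bax-/- in TrkC+ and TrkC- cells, 6 for its interaction, 0 for newborn L5 against L1 TrkC+ and 2 for the adult levels without a wheel. At the study's thresholds they were 3 for mlcNT3 against WT in TrkC+ cells (with Plxnc1 and Sema3b) and 2 in TrkC- cells, 1 for Bax-/- against WT in TrkC- cells, 15 for the sort at L5, 2 for newborn L5 against L1 TrkC+, 2 for the level interaction, and 1 and 2 for the adult levels. Without dim probe sets, newborn L5 against L1 TrkC+ had 3 (with Nrp1 and Sema4d) and the wheel at L5 had 2 (Sema6a and Sema7a). Quantile normalization gave 3 for the adult levels without a wheel, and the mean of probe sets 5 with one. The replicate block gave 2 without and 5 with a wheel. Same-numbered adult arrays correlated in their deviations from -0.241 to 0.202 and newborn ones from -0.0700 to 0.283. Every array was closest to its own number at newborn L5 and not in the adult groups. Same-numbered sorts correlated positively in all 4 pooled genotypes and at newborn L5 (0.0077 to 0.283), so the newborn sorts may be paired. The main fits did not take the numbers to pair the samples, and the replicate block moved no other count by over 1.5 times. With 1 array left out, counts ran from 10 to 13 for the sort in WT, 6 to 11 in Bax-/-, 12 to 14 in NT3-/-Bax-/-, 13 to 19 in mlcNT3, 16 to 17 at L1 and 22 to 23 at L5. For NT3 loss they ran from 9 to 12 in TrkC+ and 9 to 14 in TrkC- cells against Bax-/-, 11 to 18 against WT and 6 to 11 for the interaction. They ran from 0 to 1 for mlcNT3 against WT TrkC+, newborn L5 against L1 TrkC+, the level interaction and the wheel at L5, and from 1 to 5 and 5 to 9 for the adult levels. With the replicate block, Plxnd1 and Sema3e were called in neither adult comparison of L5 with L1, Sema7a was called with a wheel alone and Sema4d without one alone.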

Other observations

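Genes of this family with several probe sets were called in opposite directions by them in none of the 22 comparisons. In whole adult L5 against L1 ganglia without a wheel, Nrp1 (2 of its 4 probe sets) and Plxnc1 (2 of its 6) were called lower by dimmer probe sets, while the brightest probe set of each gave -0.15 and -0.22 with no call. For Plxnc1 a dim probe set was also called lower with running at L1, where the brightest gave 0.20. With running at L5 the dimmer probe set of Sema4f was called higher.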
